A study of Drosophila mojavensis with 97 samples.

Results

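Among the 14528 transcripts measured in adult female *Drosophila mojavensis*, 9 had low expression at 15°C and about the same, higher expression at 25 and 35°C in flies from both regions. They were selected on their measured values. The mean at 25°C had to exceed the mean at 15°C by at least 0.4 on the log2 scale, and by some amount in each of the 8 combinations of population and cactus. The means at 35 and 25°C had to differ by under 0.2, and those of Baja California and the mainland by under 0.585. Of the 40 transcripts with such a difference between 15 and 25°C, 22 were lower at 35 than at 25°C by 0.2 or more, 9 were higher at 35°C by 0.2 or more, and the other 9 are those described here. The vitelline membrane transcripts *Vm26Aa* and *Vm26Ab* were left out by name, and neither meets the condition on 35°C (differences, 35 minus 25, of -0.58 and -0.60). The differences between 15 and 25°C, between 25 and 35°C, and between regions are therefore described without a test.

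The flies came from 4 laboratory populations. Baja California was represented by PP (Punta Prieta) and SQ (San Quintin), the mainland by OPNM (Organ Pipe National Monument) and PO (Punta Onah). PP, SQ, and PO were mass stocks of wild-caught flies, and OPNM was assembled from isofemale lines. All flies developed from egg to eclosion on fermenting agria or organ pipe cactus, lived on banana food as adults, and were 7 days old when groups of about 30 females spent 12 hr at 15, 25, or 35°C. The 24 groups hold 97 arrays, 4 in each of 23 groups and 5 in PP reared on agria at 35°C. All groups were kept at 25°C until then, so 25°C is the rearing temperature and 15 and 35°C are short exposures. Values are the authors' log2 expression values per transcript, so that a difference of 1 is a doubling, with array medians between 9.81 and 10.10. Of the arrays, 4 stood apart from the others of their groups, 1 in PP on organ pipe at 25°C and 3 at 35°C (PP on organ pipe, SQ on organ pipe, and SQ on agria). Their mean absolute deviation from the group median over all transcripts was 0.42 to 0.68, against at most 0.34 for the others. P-values measure the spread between arrays of separate groups of females, since the labels do not say whether these groups came from separate culture bottles.

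Cold slows feeding, digestion, and egg production in insects. In the ovary of a *Drosophila* female, follicle cells secrete the vitelline membrane, the inner layer of the eggshell, during oogenesis. In the gut, chitin-binding proteins line the peritrophic matrix that encloses the food, and others bind chitin in the cuticle. Heme-binding oxidoreductases such as cytochrome P450 enzymes take part in the metabolism of hormones and of toxic plant compounds, which cactus-feeding flies meet in their hosts. No gene name from *D. melanogaster* was paired with any of the 9 transcripts, so they are given by their transcript identifiers. Of the 9, 6 had a gene identifier and 3 a functional term. FBtr0175295 was annotated with chitin binding, chitin metabolic process, and the extracellular region. FBtr0172649 carried heme binding, iron ion binding, electron carrier activity, and oxidation reduction, and FBtr0168755 carried zinc ion binding. FBtr0168945, FBtr0163953, and FBtr0167898 had a gene identifier only, and FBtr0164696, FBtr0165891, and FBtr0171402 had neither.

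FBtr0168945 (gene FBgn0140959) stood far from the other 8 in the size of its difference. At 15°C its values ran from 7.34 to 11.68 with a median of 8.66 (32 arrays), at 25°C from 11.20 to 13.16 with a median of 12.12 (32 arrays), and at 35°C from 10.46 to 13.13 with a median of 12.25 (33 arrays). All but 3 of the 32 arrays at 15°C lay below every array at 25°C. The means were 8.88 ± 1.16 at 15°C, 12.16 ± 0.47 at 25°C, and 12.15 ± 0.69 at 35°C (SD, n = 32, 32, and 33). The difference, 25 minus 15, was 3.27 ± 0.20 (SE), a 9.67-fold lower expression at 15°C, while 35 minus 25 was -0.02. RNA came from whole flies, so fewer cells of a type and less RNA per cell cannot be told apart, here and below. The 4 arrays at 15 and the 4 at 25°C did not overlap in any of the 8 combinations of population and cactus. Over all transcripts, 1.71% passed the test as higher at 25 than at 15°C and 4.36% as lower, and since this contrast chose the 9, nothing is read from their counts against these shares. Of the calls, 28.2% were higher at 25°C in the deposited values, 34.9% after a second quantile normalization, and 41.7% with arrays centred on their medians.

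**Figure D1:**
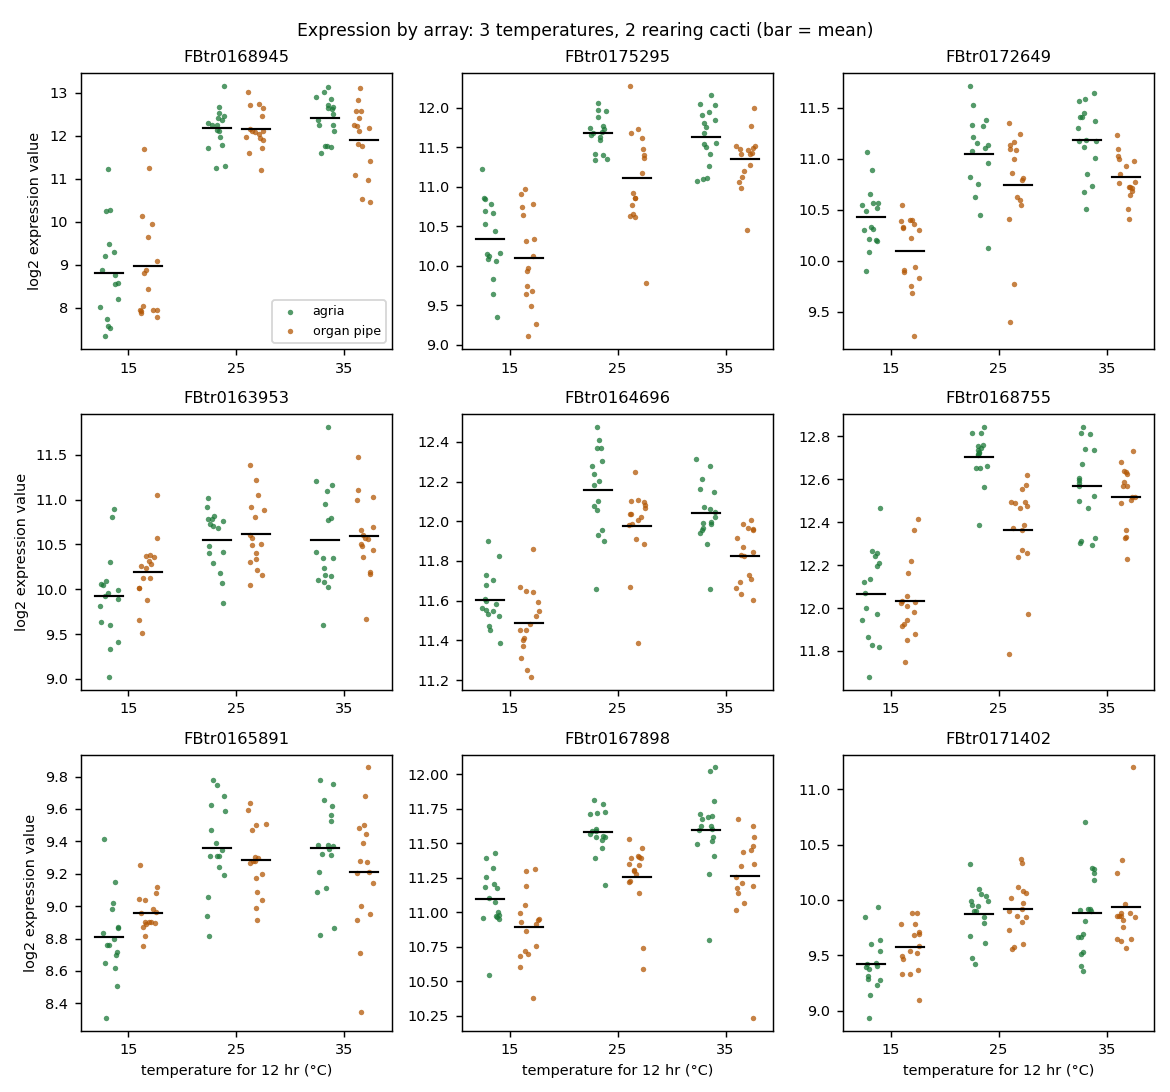
Log2 expression value (vertical axes) of each of the 9 transcripts on every array at 15, 25, and 35°C, with flies reared on agria left of those reared on organ pipe and a bar at the mean of each. The arrays of FBtr0168945 at 15°C run from 7.34 to 11.68, and all but 3 of them lie below every array at 25°C.

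The cold difference of FBtr0168945 was large in every combination of population and cactus. It was smallest in SQ on agria (25 minus 15 of 2.67) and largest in OPNM on agria (4.07). In OPNM on agria the arrays read 7.34, 7.57, 8.76, and 7.74 at 15°C and 11.72, 12.40, 11.25, and 12.30 at 25°C. The mean at 15°C (7.85 ± 0.63) was the lowest of the 8 combinations, and that at 25°C was 11.92 ± 0.54 (SD, n = 4 each). In SQ on agria the arrays read 10.25, 8.56, 9.20, and 11.22 at 15°C and 13.16, 12.26, 12.14, and 12.37 at 25°C. Its smaller difference went with the highest mean at 15°C (9.81 ± 1.17; SD, n = 4).

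Arrays of the same group differed widely in FBtr0168945 at 15°C. The SD within groups was 1.16 at 15°C, 0.41 at 25°C, and 0.67 at 35°C. The 3 arrays at 15°C inside the range of 25°C came from 3 different groups, OPNM on organ pipe (11.68, against 7.95, 7.95, and 8.43 for the other 3 arrays of the group), PP on organ pipe (11.25, against 7.79, 8.81, and 9.94), and SQ on agria (11.22). At 15°C the arrays lay on average 0.52 ± 0.12 (SE) further from their group median than at 25°C. This difference in spread, which the selection did not use, had an unadjusted p of 2.3e-05 and an adjusted p of 0.08 (limma on absolute deviations, adjusted over all transcripts), and so did not pass the threshold of 0.01. Of all transcripts, 1 passed (0.00688%) and 2.82% had an unadjusted p under 0.05. In the other 8 transcripts, the differences in spread lay between -0.06 and 0.10, with adjusted p-values near 1.

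At 35°C the level of FBtr0168945 was like that at 25°C on average but not in every combination. The difference, 35 minus 25, was positive in 6 of 8 combinations, largest in PO on agria (0.47), and negative in PP and OPNM on organ pipe. In OPNM on organ pipe the mean at 35°C was 11.58 ± 0.98, against 12.58 ± 0.36 at 25°C (SD, n = 4 each).

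FBtr0175295, the transcript with chitin-binding terms (gene FBgn0147292), had the next largest difference. It ran from 9.10 to 11.22 with a median of 10.16 at 15°C, from 9.79 to 12.28 with a median of 11.53 at 25°C, and from 10.45 to 12.17 with a median of 11.49 at 35°C. The means were 10.22 ± 0.55, 11.40 ± 0.53, and 11.50 ± 0.37 (SD), and 25 minus 15 was 1.18, a 2.26-fold lower expression at 15°C. Arrays at 15 and 25°C did not overlap in 6 of 8 combinations, though 8 of the 32 arrays at 15°C lay below every array at 25°C. The difference ran from 0.26 in SQ on organ pipe to 1.72 in PP on organ pipe. In SQ on organ pipe the arrays read 10.31, 10.91, 10.64, and 10.97 at 15°C and 10.86, 10.78, 11.36, and 10.86 at 25°C, and they overlapped. There the mean was higher again at 35°C (11.45 ± 0.26, against 10.97 ± 0.27 at 25°C), as it was in OPNM on organ pipe (11.26 ± 0.28 at 35°C, against 10.49 ± 0.49 at 25°C; SD, n = 4 each).

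FBtr0172649, with heme-binding and electron-carrier terms (gene FBgn0144653), ran from 9.26 to 11.07 with a median of 10.31 at 15°C, from 9.40 to 11.71 with a median of 11.04 at 25°C, and from 10.41 to 11.64 with a median of 11.00 at 35°C. Its mean was 10.26 ± 0.36 at 15°C, 10.89 ± 0.49 at 25°C, and 11.01 ± 0.34 at 35°C (SD), and 25 minus 15 was 0.63, or 1.55-fold. By group means this difference was smaller in OPNM than in the other 3 populations, but that contrast was not tested. In OPNM on organ pipe the arrays read 9.75, 10.40, 10.39, and 9.89 at 15°C and 9.77, 9.40, 10.81, and 10.55 at 25°C, with means of 10.11 and 10.13 and a difference of 0.02. The arrays at 9.77 and 9.40 were also the lowest of that group in FBtr0164696 (11.67 and 11.39), FBtr0168755 (11.97 and 11.79), and FBtr0167898 (10.74 and 10.59). Neither array was among the 4 that stood apart, and whether the small difference rests on them was not tested. In OPNM on agria the difference was 0.31 and the arrays overlapped, as they did in SQ on agria (0.41) and PO on agria (0.83). Arrays at 15 and 25°C did not overlap in 4 of 8 combinations. At 35°C the mean of OPNM was 10.86 ± 0.14 on organ pipe and 11.40 ± 0.24 on agria, against 10.13 ± 0.66 and 10.63 ± 0.46 at 25°C (SD, n = 4 each). In PP, SQ, and PO the difference, 25 minus 15, was 0.41 to 0.93.

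The zinc-binding FBtr0168755 (gene FBgn0140770) ran from 11.68 to 12.47 with a median of 12.02 at 15°C, from 11.79 to 12.85 with a median of 12.57 at 25°C, and from 12.23 to 12.85 with a median of 12.57 at 35°C. The difference, 25 minus 15, was 0.48 (1.40-fold), from 0.11 in SQ on organ pipe to 0.78 in OPNM on agria. Arrays at 15 and 25°C did not overlap in 6 of 8 combinations. Of the 32 arrays at 15°C, 26 lay below every array at 35°C.

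The other transcripts carried no functional term. FBtr0164696 had the tightest values of them, with means of 11.55 ± 0.16 at 15°C, 12.07 ± 0.23 at 25°C, and 11.94 ± 0.18 at 35°C (SD), a difference, 25 minus 15, of 0.52, and no overlap in 6 of 8 combinations. FBtr0167898 had means of 10.99 ± 0.25, 11.42 ± 0.26, and 11.43 ± 0.35, a difference of 0.42, and no overlap in 5 combinations. Its difference ran from 0.10 in OPNM on organ pipe to 0.65 in PP on organ pipe. In OPNM its 35 minus 25 was 0.36 on organ pipe and 0.42 on agria, against -0.25 and -0.24 in PP. The value of PP on organ pipe includes an array at 10.235, against 11.141, 11.545, and 11.337 for the others at 35°C. It is one of the 4 arrays that stood apart. FBtr0163953 had means of 10.06 ± 0.44, 10.59 ± 0.36, and 10.57 ± 0.49 at the 3 temperatures and a difference of 0.53, yet its arrays were separate in only 2 of 8 combinations. FBtr0165891 had means of 8.89 ± 0.21, 9.32 ± 0.25, and 9.29 ± 0.33, a difference of 0.44, and no overlap in 3 combinations. FBtr0171402 lay just inside the limit, at 0.401, and was separate in 4 combinations.

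The limits of the selection cut through a continuous range of values. Just under the limit of 0.4 lay FBtr0170428, with 25 minus 15 of 0.394. FBtr0168870 had a difference of 1.298 and missed the set because it was lower at 35 than at 25°C by slightly more than 0.2 (35 minus 25 of -0.21). FBtr0162063, FBtr0172233, FBtr0166609, and FBtr0170643 had differences of 0.40 to 0.67 and missed it because they were higher at 35°C by 0.22 to 0.28. FBtr0167243, with a difference of 0.60, had the required sign in 7 of 8 combinations. Without the 4 arrays that stood apart, the set again held 9 transcripts, 8 of them the same, with FBtr0168870 in the place of FBtr0171402 (0.391). Leaving out the arrays labelled replicate 4 gave 39 transcripts and leaving out replicate 2 gave 15, and 7 of the 9 were in each.

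**Figure D2:**
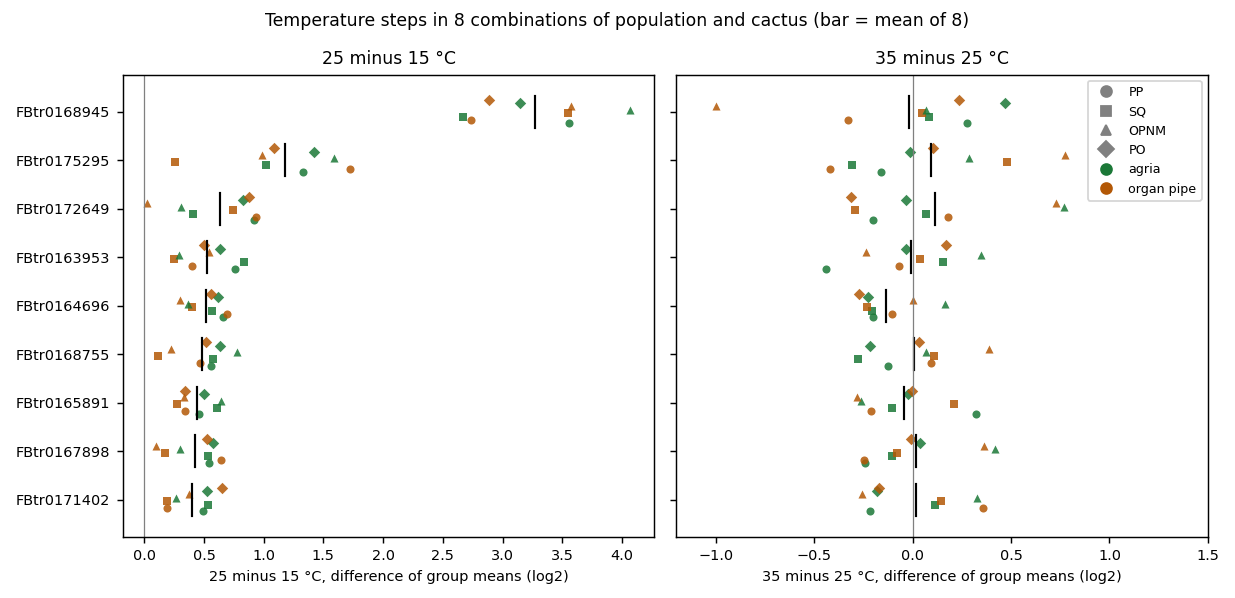
Differences between temperatures of each of the 9 transcripts in the 8 combinations of population and cactus, on the log2 scale, with 25 minus 15°C and 35 minus 25°C shown apart. The difference of FBtr0168945 between 15 and 25°C runs from 2.67 to 4.07, and FBtr0172649 in OPNM has a small difference from 15 to 25°C and one above 0.7 from 25 to 35°C.

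Rearing cactus was not used in the selection, and 5 of the 9 transcripts differed by it, all with higher expression in flies reared on agria than in flies reared on organ pipe. Over all transcripts, 17.0% differed between the cacti and 14.5% were higher on agria. At an unadjusted p under 0.05, which 55.2% of all transcripts reached, there were the same 5 of the 9. The median difference, agria minus organ pipe, was 0.14 over the 9 and -0.03 over all transcripts. The 5 were the chitin-binding FBtr0175295, the heme-binding FBtr0172649, the zinc-binding FBtr0168755, and FBtr0164696 and FBtr0167898, for which no function was given. The direction of the calls over all transcripts moved with the scaling, from 85.6% higher on agria in the deposited values to 72.3% after a second quantile normalization and 50.0% with arrays centred on their medians.

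FBtr0175295 averaged 11.22 ± 0.72 in flies reared on agria and 10.86 ± 0.75 in flies reared on organ pipe (SD over all temperatures, 49 and 48 arrays). The difference was 0.36 ± 0.07 (SE; adjusted p = 0.00028, limma), and agria was higher in 10 of the 12 combinations of population and temperature. FBtr0172649 averaged 10.89 ± 0.48 on agria and 10.55 ± 0.50 on organ pipe, a difference of 0.34 ± 0.06 (adjusted p = 7.3e-05), with agria higher in 11 of 12. FBtr0167898 averaged 11.43 ± 0.32 on agria and 11.14 ± 0.33 on organ pipe, a difference of 0.29 ± 0.05 (adjusted p = 4.8e-06), again in 11 of 12. These 3 differences also passed with arrays centred on their medians.

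FBtr0164696 and FBtr0168755 had smaller differences. FBtr0164696 averaged 11.93 ± 0.29 on agria and 11.76 ± 0.26 on organ pipe, a difference of 0.17 ± 0.03 (adjusted p = 0.00028), and was higher on agria in 12 of 12 combinations. FBtr0168755 averaged 12.45 ± 0.32 on agria and 12.31 ± 0.27 on organ pipe, a difference of 0.14 ± 0.03 (adjusted p = 0.0014), in 8 of 12. Both kept their direction but missed the threshold with arrays centred on their medians (0.12 and 0.095, adjusted p = 0.012 and 0.032). FBtr0164696 also missed it without the arrays labelled replicate 3 (adjusted p = 0.023), and FBtr0168755 without replicate 1 or replicate 2 (adjusted p = 0.020 and 0.033). The remaining 4 transcripts did not pass the test. FBtr0168945 averaged 11.12 ± 1.81 on agria and 11.00 ± 1.70 on organ pipe, a difference of 0.12 with a 95% interval of -0.20 to 0.44. For FBtr0163953, FBtr0165891, and FBtr0171402 the differences were -0.12, 0.02, and -0.08.

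At 25°C alone, 3 of the 9 transcripts were higher on agria, against 6.72% of all transcripts. An unadjusted p under 0.05 was reached by 5 of the 9 and by 33.3% of all transcripts. FBtr0175295 averaged 11.68 ± 0.22 on agria and 11.11 ± 0.60 on organ pipe at 25°C (SD, n = 16 each), a difference of 0.57 ± 0.13 (adjusted p = 0.0013, limma). The populations were uneven in it. Group means on agria and organ pipe were 11.63 and 10.49 in OPNM and 11.84 and 10.97 in SQ. In PP they were 11.82 and 11.63, and in PO 11.42 and 11.37. FBtr0168755 averaged 12.70 ± 0.11 on agria and 12.36 ± 0.22 on organ pipe, a difference of 0.34 ± 0.05 (adjusted p = 3.9e-06). Its group means on agria and organ pipe were 12.72 and 12.13 in OPNM and 12.75 and 12.37 in SQ. In PP they were 12.75 and 12.44, and in PO 12.60 and 12.52. FBtr0167898 averaged 11.58 ± 0.15 on agria and 11.26 ± 0.25 on organ pipe, a difference of 0.33 ± 0.08 (adjusted p = 0.0053). Without the arrays labelled replicate 1, only FBtr0168755 of the 3 passed (FBtr0175295, adjusted p = 0.027). FBtr0167898 missed the threshold at 25°C without replicate 1, 2, 3, or 4 (adjusted p = 0.010 to 0.087), after a second quantile normalization (0.012), and with centred arrays (0.023). Of the calls over all transcripts at 25°C, 91.6% were higher on agria in the deposited values and 58.4% with centred arrays. At 35°C, FBtr0167898 was the only one of the 9 to pass (0.35 ± 0.08, adjusted p = 0.0023), against 2.39% of all transcripts higher on agria. There, 4 of the 9 and 26.5% of all transcripts had an unadjusted p under 0.05. Fits that left out replicate 1, 3, or 4 put FBtr0167898 above the threshold (adjusted p = 0.022, 0.010, and 0.045). Over all transcripts at 35°C, 97.5% of the calls were higher on agria in the deposited values and 57.0% with centred arrays. Without the 4 arrays that stood apart, FBtr0172649 and FBtr0164696 passed at 35°C as well. At 15°C none passed, against 0.110% of all transcripts, with 2 of the 9 under an unadjusted p of 0.05 (12.4% of all transcripts) and the largest difference in FBtr0172649 (0.33, adjusted p = 0.047).

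**Figure D3:**
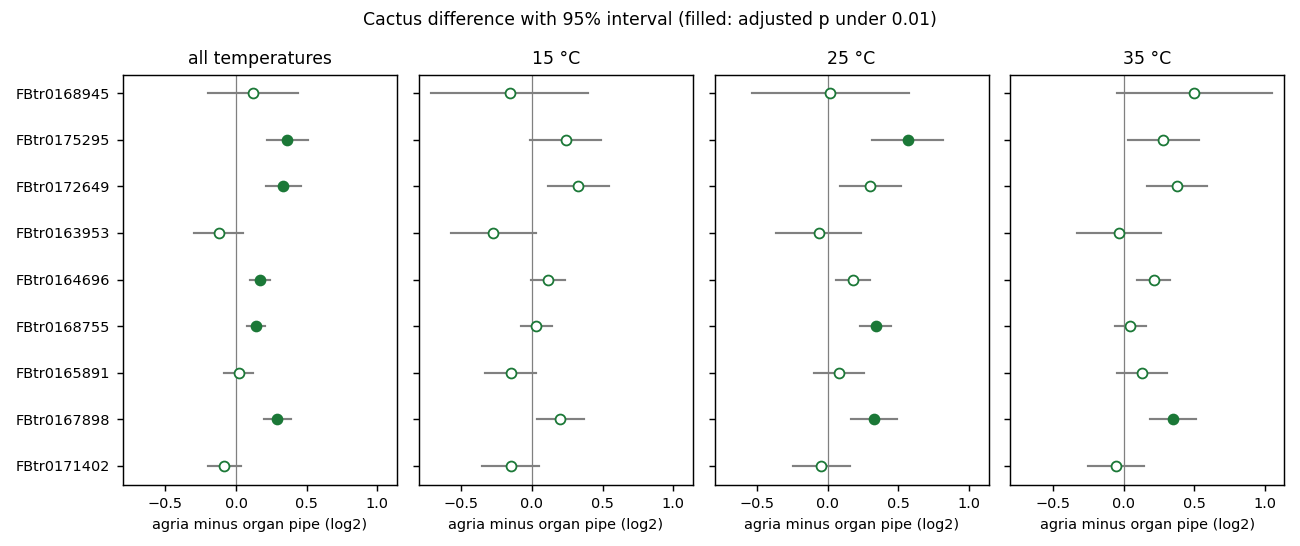
Difference between flies reared on agria and on organ pipe (agria minus organ pipe, log2) for each of the 9 transcripts, over all temperatures and at 15, 25, and 35°C, with 95% intervals and filled points for an adjusted p under 0.01. FBtr0175295, FBtr0172649, FBtr0164696, FBtr0168755, and FBtr0167898 lie above 0 over all temperatures, and the difference of FBtr0168755 is 0.34 at 25°C, 0.03 at 15°C, and 0.05 at 35°C.

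Whether the response to cold itself depended on the cactus was tested as the difference in 25 minus 15 between agria and organ pipe. The selection required the same sign in every combination, which limits how far the differences could diverge. None of the 9 passed, nor did any transcript on the array (0%), and 8 of the 9 values were positive, that is, with the larger cold difference on agria. In simulated data this test recovered 44 of 100 differences of 0.5, and the largest among the 9 was 0.33. The simulated noise was independent between arrays and transcripts, unlike the deviations in these data, so that share need not hold here. With an unadjusted p under 0.05 there was 1 of the 9, FBtr0168755, and 4.8% of all transcripts. For FBtr0168755, 25 minus 15 was 0.64 on agria and 0.33 on organ pipe, a difference of 0.31 with a 95% interval of 0.15 to 0.46 (unadjusted p = 0.00016, adjusted p = 0.999, limma). Its difference, 35 minus 25, was -0.14 on agria and 0.16 on organ pipe (unadjusted p = 0.00029, adjusted p = 0.9999). On agria FBtr0168755 thus had means of 12.07, 12.70, and 12.57 at 15, 25, and 35°C, and on organ pipe 12.03, 12.36, and 12.52. None of the 9, and 0% of all transcripts, passed for the difference in 35 minus 25 between the cacti.

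Between regions, the difference in 25 minus 15 passed in none of the 9 and in 0% of all transcripts, and none of the 9 had an unadjusted p under 0.05 (1.07% of all). The largest belonged to FBtr0168945, with 25 minus 15 of 3.13 in Baja California and 3.42 on the mainland, a difference of -0.29 with a 95% interval of -1.08 to 0.49. For 35 minus 25, none of the 9 and 0% of all transcripts passed. FBtr0175295, FBtr0172649, and FBtr0167898 had unadjusted p-values under 0.05 (5.55% of all), each with the lower value in Baja California. For FBtr0167898, 35 minus 25 was -0.17 in Baja California and 0.20 on the mainland, a difference of -0.37 with a 95% interval of -0.60 to -0.14 (unadjusted p = 0.0020, adjusted p = 0.41). The 3 arrays at 35°C that stood apart are all in Baja California, among them the one of PP on organ pipe at 10.235 for this transcript.

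The populations within a region were not part of the selection either. None of the 9 differed between PP and SQ, against 1.09% of all transcripts (53.8% of these calls higher in PP, and 39.7% after a second quantile normalization), and none between OPNM and PO, against 3.90%. At an unadjusted p under 0.05 there were 3 of the 9 for PP and SQ (19.8% of all transcripts) and 1 for OPNM and PO (18.2%). The heme-binding FBtr0172649 came closest in both. It averaged 10.61 in PP and 10.85 in SQ, a difference of -0.24 with a 95% interval of -0.42 to -0.07 (adjusted p = 0.078, limma). It averaged 10.58 in OPNM and 10.84 in PO, a difference of -0.26 with an interval of -0.44 to -0.09 (adjusted p = 0.051). Without the arrays labelled replicate 3 the difference between OPNM and PO passed (adjusted p = 0.0050).

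Deviations of each array from its group mean show which transcripts varied together among flies treated alike, and are given here as a description over 97 arrays that share their hybridization and normalization. FBtr0168945 varied with the vitelline membrane transcripts *Vm26Aa* (r = 0.86) and *Vm26Ab* (r = 0.68). For *Vm26Aa* the correlation was 0.84 at 15°C, 0.77 at 25°C, and 0.94 at 35°C. Of all transcripts, the closest to FBtr0168945 were FBtr0162051 (r = 0.93), *Vm26Aa*, FBtr0172526 (0.82), FBtr0168870 (0.76), and FBtr0162063 (0.73). Those other than *Vm26Aa* had no name, were taken as the closest after their values were seen, and were also lower at 15 than at 25°C, with 25 minus 15 between 0.67 and 2.27.

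The vitelline membrane transcripts fell at 15°C but did not hold their level at 35°C. *Vm26Aa* averaged 10.75 ± 1.06 at 15°C, 12.93 ± 0.31 at 25°C, and 12.36 ± 0.70 at 35°C (SD), with 25 minus 15 of 2.18 ± 0.15 (SE; adjusted p = 5.6e-20, limma). *Vm26Ab* averaged 12.22 ± 0.74, 13.84 ± 0.21, and 13.25 ± 0.48, with 25 minus 15 of 1.63 ± 0.11 (adjusted p = 3.1e-21). The study had already reported higher vitelline membrane genes at 25 than at 15°C from the same arrays, so these p-values are not independent evidence. In FBtr0168945 the means at 35 and 25°C differed by only -0.02. Like FBtr0168945, both had their widest spread at 15°C.

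**Figure D4:**
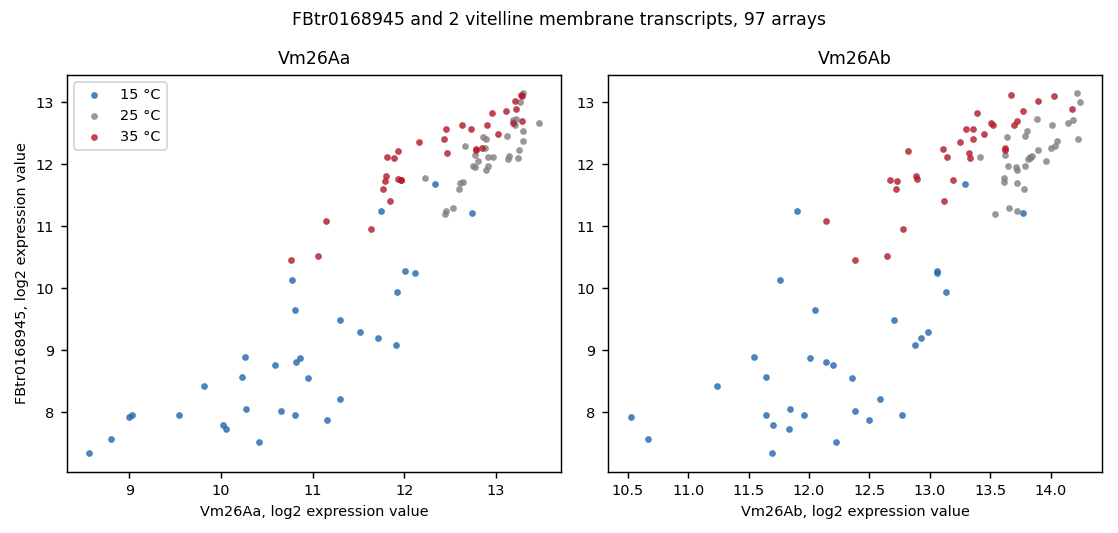
Log2 expression value of FBtr0168945 (vertical axis) against those of *Vm26Aa* and *Vm26Ab* (horizontal axes), 1 point per array, by temperature. Within each temperature the arrays lie along a rising band, and the array at 15°C with the highest FBtr0168945 (11.68) has 12.34 for *Vm26Aa*.

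The other 8 transcripts correlated with FBtr0168945 between -0.25 and 0.33. The highest of these was FBtr0165891 (r = 0.33, and 0.54 at 35°C), in rank 119 of all transcripts. The heme-binding FBtr0172649 varied with FBtr0164696 (r = 0.79, rank 10 of all transcripts, and 0.87 at 25°C) and with FBtr0167898 (r = 0.58, and 0.82 at 25°C). The chitin-binding FBtr0175295 varied with FBtr0167898 (r = 0.58) and with FBtr0168755 (r = 0.40). The 5 transcripts that were higher on agria correlated with each other at 0.25 to 0.79, and the weakest of these values were common on the array, FBtr0164696 being in rank 2732 for FBtr0175295. FBtr0163953 and FBtr0171402 correlated with each other at 0.71 and with the rest of the 9 between -0.25 and 0.20. Many other transcripts were closer to each, since FBtr0171402 was in rank 1497 for FBtr0163953 and FBtr0163953 in rank 691 for FBtr0171402. Among the 9 and the 2 vitelline membrane transcripts, FBtr0165891 was closest to *Vm26Ab* (r = 0.45).

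**Figure D5:**
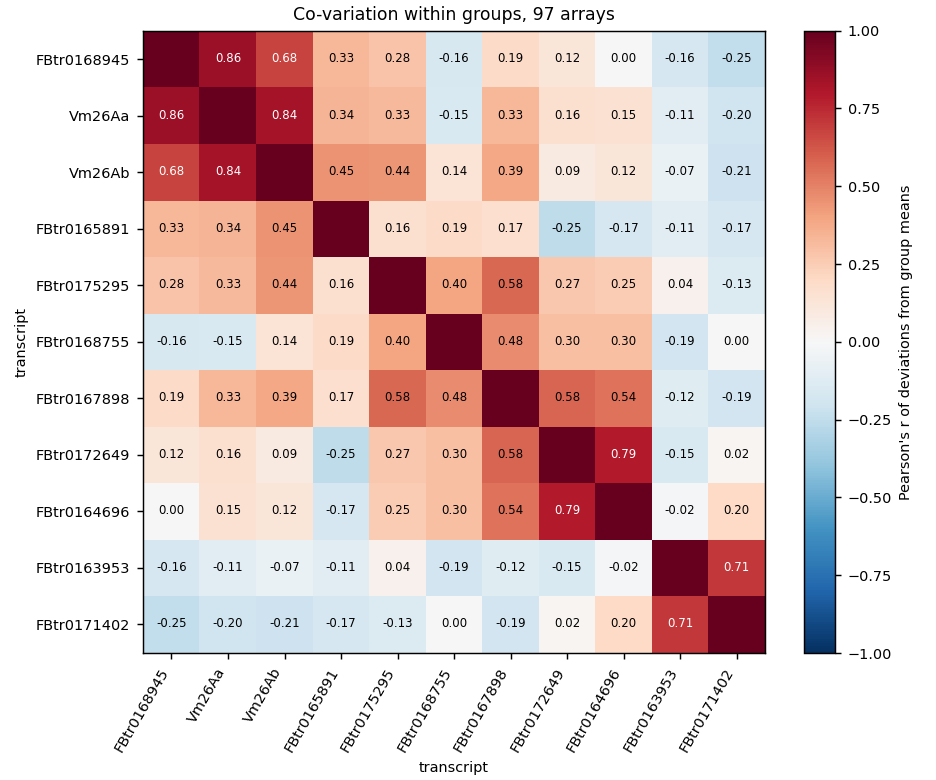
Pearson correlation between deviations from the group mean over 97 arrays, for the 9 transcripts and the 2 vitelline membrane transcripts. FBtr0168945 has 0.86 with *Vm26Aa* and 0.68 with *Vm26Ab*, the 5 transcripts higher on agria have 0.25 to 0.79 with each other, and FBtr0163953 has 0.71 with FBtr0171402.

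Lists of genes for related functions were compared between 15 and 25°C, matched by *D. melanogaster* names, of which 557 transcripts had one. The names came from gene tables of the study that were chosen on the same arrays, so the counts are not independent evidence of a direction. The shares over all transcripts were 1.71% higher at 25°C and 4.36% lower. In the eggshell list, 2 of 2 matched transcripts were higher at 25 than at 15°C, *Vm26Aa* and *Vm26Ab*, and none matched for chorion, yolk, or germ line. For chorion, the study itself reports the opposite direction, with several genes lower at 25 than at 15°C. *Hsc70-3*, a chaperone of the endoplasmic reticulum and the only one matched for secretion, had 25 minus 15 of 0.00 (adjusted p = 0.98). Of 2 clock genes, *Pdp1* was lower at 25 than at 15°C (-0.16, adjusted p = 0.0096), and *per* had -0.28 (adjusted p = 0.012). Of 6 genes of peptidoglycan recognition and alkaline phosphatases, 3 were higher at 25°C and none lower. These were *PGRP-SA*, a receptor for bacterial cell wall in *D. melanogaster* (0.40), *CG1809* (0.48), and *CG10827* (0.62), and their means were higher again at 35°C by 0.34 to 0.59. *PGRP-LA* (-0.12), *PGRP-LF* (-0.06), and *CG10592* (-0.17) did not pass, and no serpin was matched. For serpins and proteoglycan recognition proteins the study itself reports the opposite direction, as categories enriched among genes lower at 25 than at 15°C.

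Other transcripts with the chitin-binding and heme-binding terms were compared between 15 and 25°C as well. These lists came from gene tables of the study that were chosen on the same arrays and were held only in part, so their counts are not independent evidence of a direction. Of 13 other transcripts with chitin binding, 6 were lower at 25 than at 15°C and none was higher, with a median of -0.29 against 0.02 over all transcripts. Among the 6 was *Peritrophin-A*, named for the peritrophic matrix, with means of 9.27 ± 0.40 at 15°C and 8.79 ± 0.29 at 25°C (SD). FBtr0175295 had the opposite sign, 1.18. Of 57 other transcripts with heme binding, 2 were higher at 25 than at 15°C and 15 were lower, with a median of -0.04. The 2 were FBtr0172679 (0.42) and FBtr0169963 (0.34), and FBtr0169963 was also among the transcripts whose deviations were closest to those of FBtr0172649 (r = 0.82) and FBtr0164696 (r = 0.81).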

How the data were processed

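The deposited log2 values, 1 per transcript and array, were used as the authors made them. Per the labels and the study's methods, Cy3-labeled cDNA was hybridized to one-color NimbleGen arrays with 9 probes per transcript, spot intensities were quantile-normalized across arrays, and probes were summarized by RMA. Raw intensities were not used here, so background and slide could not be examined, and small differences depend on the normalization.

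Groups came from the labels. In limma 3.58.1 (R 4.3.3), 1 mean was fitted for each of the 24 groups (73 residual degrees of freedom), and contrasts were differences of equally weighted group means. Two-sided p-values were adjusted by Benjamini-Hochberg, for cactus and populations over 483 pairwise comparisons and all transcripts together, and for differences of differences and spread within each contrast, with a threshold of 0.01. The labels give replicate 3 to a pair of arrays of OPNM on organ pipe at 35°C and replicate 2 to none there, and both arrays were kept.

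The 9 transcripts, the gene lists, and the comparisons were chosen with earlier results of these data known. All 9 are named, with values by temperature for those with the largest differences or past a threshold. Functional terms and names came from supplementary gene tables of the study held in part, which gave 4000 transcripts a gene identifier. Sequences were not used here. The tests were first run on simulated data with known differences.

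Alternatives were leaving out each replicate number, a second quantile normalization, arrays centred on medians, leaving out the dimmest 25% of transcripts, array weights, a replicate block, adjustment and selection limits, and, chosen after seeing the data, leaving out 4 arrays and the tests of cactus at each temperature.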

Additional observations from a re-analysis of the deposited data

Results flagged for a closer look

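In 19 of 216 sets of values (a transcript in a group of 4 or 5 arrays), 1 array lay further from the others than Dixon's critical value allows. Chance alone flags about 5% of such sets. FBtr0168945 was 11.683 in OPNM on organ pipe at 15°C, where the other arrays were at 7.95 to 8.43, and 11.764 in PP on agria at 35°C, where they were at 12.67 to 13.02. FBtr0175295 was 10.454 in PP on organ pipe at 35°C, below 11.42 to 11.52, and 11.364 in SQ on organ pipe at 25°C, above 10.78 to 10.86. FBtr0172649 was 11.065 in SQ on agria at 15°C, above 10.49 to 10.56.

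FBtr0163953 was 10.898 in OPNM on agria at 15°C and 11.113 in PO on organ pipe at 35°C, both high for their groups. FBtr0164696 was high at 11.859 in PO on organ pipe at 15°C. FBtr0168755 was high at 12.605 in PO on agria at 35°C and at 12.618 in PO on organ pipe at 25°C, and low at 11.925 in PO on organ pipe at 15°C. FBtr0165891 was low at 8.9889 in PO on organ pipe at 25°C. FBtr0167898 was low in 4 groups, at 10.548 and 11.194 in OPNM on agria at 15 and 25°C, at 10.723 in OPNM on organ pipe at 15°C, and at 11.069 in PO on organ pipe at 35°C.

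FBtr0171402 was low at 9.5298 in OPNM on agria at 35°C and high in 2 groups on organ pipe at 35°C, at 11.198 in PP (the others at 9.82 to 9.88) and at 10.364 in SQ (9.63 to 9.65). These 2 arrays and the one of FBtr0175295 at 10.454, which is the same array as that in PP, are among the 4 that stood apart over all transcripts.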

How the results depend on the processing

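The selection was more sensitive than the tests. Leaving out each replicate number in turn gave sets of 9 to 39 transcripts, centring arrays on their medians 17 (all 9 among them), a limit of 0.3 or 0.5 on 25 minus 15 gave 45 or 5, and a limit of 0.3 on 35 minus 25 gave 14. FBtr0168945, FBtr0175295, and FBtr0163953 were in the set under all 14 alternatives, and the others under 9 to 13. The count of transcripts differing between the cacti was 4 to 5 with a replicate left out and 3 with centred arrays, with no direction reversed. At 15°C it was 3 with array weights, at 25°C 1 to 3 with a replicate left out, and at 35°C 0 to 1 with a replicate left out, 0 with centred arrays, 2 without the dimmest 25%, 4 with array weights, and 3 without the 4 arrays that stood apart. Array weights also gave 1 transcript for PP and SQ (FBtr0171402) and 1 for the regional difference in 35 minus 25 (FBtr0167898), and leaving out replicates gave 0 to 1 for OPNM and PO. Weights ran from 0.00272 to 277, so those fits rest on few arrays. For single transcripts, 92 of 108 alternative values stayed on their side of the threshold, 16 missed it, and none reversed.

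Deviations of same-numbered arrays of different groups had a mean r of -0.009 (-0.86 to 0.84 over 1104 pairs). Differently numbered arrays had a mean r of 0.006 (-0.84 to 0.89 over 3404 pairs). The numbers thus showed no pairing on average over all groups, and pairing within some of the groups was not tested. With a replicate block the set held 9, cactus called 5, cactus at 25 and 35°C 3 and 1, and the other tests 0, as without it. Precision is limited by the number of arrays, and signal over background is not known.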
